A study of Mus musculus with 8 samples.

Results

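The genes described here encode the histone modifying machinery other than the complex of DOT1L itself: the Polycomb repressive complexes, the MLL and SET1 methyltransferase complexes, further histone methyltransferases, demethylases, deacetylases and the ligases that ubiquitinate histone H2B. They were 45 named genes, chosen by symbol and not by measured values, and an array probe belonged to a gene if its transcript accession mapped to that symbol. Of the 45 genes, 44 had a matched probe and 42 had a probe bright enough to be tested, among 13982 genes tested in all. Expression was measured in pairs of whole mouse kidneys (C57BL/6) at embryonic day 16.5. The controls were 4 wildtype kidney pairs (WT, genotype "control"). The other 4 pairs (KO, genotype "DOT1-null") came from embryos in which Dot1 had been deleted conditionally in Six2-expressing nephron progenitors. Dot1 is read here as Dot1l, the mouse gene symbol. The Cre line, the floxed allele and whether the controls carried either are not given in the sources used here. Because the knockout was directed at the Six2-positive lineage and whole kidneys were profiled, stroma, vessels, blood cells and collecting ducts, which arise outside that lineage, are part of every value.

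DOT1L places methyl groups on lysine 79 of histone H3, a mark of transcribed genes, and it works beside the enzymes examined here. Ubiquitination of histone H2B by the RNF20 and RNF40 ligase pair stimulates DOT1L, and fusions of the MLL protein recruit it to Hox genes in leukaemia. Polycomb complex PRC2 writes the repressive methyl mark on lysine 27 of histone H3 and PRC1 ubiquitinates histone H2A, while MLL and SET1 complexes write the active mark on lysine 4. In the kidney, PRC2 is known for keeping nephron progenitors proliferating and for restraining premature differentiation.

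The RNA of a sample carried the red dye Cy5 and was hybridised against WT1 kidney RNA in the green dye Cy3, so that every value below is a log2 ratio of a sample over this common reference, and a difference is the mean of the KO ratios minus the mean of the WT ratios. Differences were tested with limma across all 13982 genes, and p-values were adjusted over all of them by Benjamini-Hochberg with a threshold of 0.05. SE is limma's moderated standard error, with 4 arrays per group unless stated. The number of arrays limits the precision. Arrays WT1 and KO1 stood apart: their red negative-control spots had medians of 1361 and 478.2 scanner units, against 58 to 61 on the other 6 arrays. Green control medians were 412 and 111.5, against 21 to 26. The green signals, from the common reference, had median correlations with the other arrays of 0.56 (WT1) and 0.90 (KO1). For each of the other 6 arrays this median was 0.996 to 0.997. Results are therefore also given without WT1 and KO1. The WT arrays lay in row 1 of the slides and the KO arrays in row 2, so slide row and genotype cannot be told apart. All 4 KO arrays and WT2 had the Y-linked gene Ddx3y at log2 ratios of 2.31 to 3.29, and the other 3 WT arrays had it at -0.11 to 0.08, so the KO embryos were male and 3 of 4 WT embryos were female by this marker. Kidney identity was visible in the arrays, as the kidney marker genes Pax2, Pax8, Wt1, Six2, Nphs1, Umod and Ret were measured above background.

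The targeted gene gave no check of the labels. Dot1l had log2 ratios of -0.23, -0.21, -0.09 and -0.09 (WT1 to WT4) against -0.13, -0.04, -0.21 and -0.11 (KO1 to KO4), a difference of 0.03 ± 0.08 (SE; adjusted p = 0.924). Where its probe lies relative to the deleted part was not analysed here.

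The question asked of the histone modifier genes was whether their transcripts differed between kidneys with and without Dot1l in the progenitor lineage. None of the 42 measured genes passed in either direction. Their differences ran from -0.26 (Kdm2b) to 0.31 (Rnf20) on the log2 scale, with a median of 0.04 against 0.03 over all genes tested. Across all genes 301, or 2.15%, passed (225 higher, 1.61%, and 76 lower, 0.544%). At an unadjusted p under 0.05 there were 4 of the 42 (Kdm2b, Rnf20, Rbbp7 and Kdm3a), or 9.52%, against 14.5% of all genes. With the replicate number as a block, which raised the count over all genes to 556, no histone modifier gene passed, and none passed without WT1 and KO1 (smallest adjusted p = 0.119; 246, or 1.76%, of all genes called).

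The intervals show how large a difference these arrays leave room for, and they depended on the fit. For all 42 genes, at the brightest probe, the 95% confidence interval of the difference lay within a 1.5-fold change either way (0.58 on the log2 scale), as it did for 92.1% of all genes, and it lay within 1.25-fold for 23 of the 42. The 1.5-fold bound held for all 42 without WT1 and KO1 and with the replicate block, for 40 to 42 without any single array, for 32 with the scanner software's ratios, for 28 with sex as a term, for 6 in the red channel alone and for 2 with median centring in place of loess. Of all 61 kept probes of these genes 1 reached beyond it, the second Kdm2b probe (-0.63 to -0.25). Each interval covers 1 gene and is not adjusted for the number of genes. Some of the probes used were dim on the arrays other than WT1 and KO1. Red signals there were 80 to 105 units for Phf1, 92.4 to 135.8 for Hdac2, 115.5 to 160 for Kmt2d and 150 to 179 for Hdac3. An offset of 50 was added to the intensities, which shrinks the ratios of such probes. Their narrow intervals therefore do not exclude larger changes of the transcript. At the precision of these genes (median SE 0.11), a difference would have had to reach a median of 0.46, or 1.37-fold, to pass over all genes. The size needed ran from 0.33 for Hdac2 to 0.66 for Kdm5b. In whole kidneys a smaller share of cells of a type and less RNA per cell cannot be told apart, and the share of progenitors in these kidneys was not measured.

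**Figure D1:**
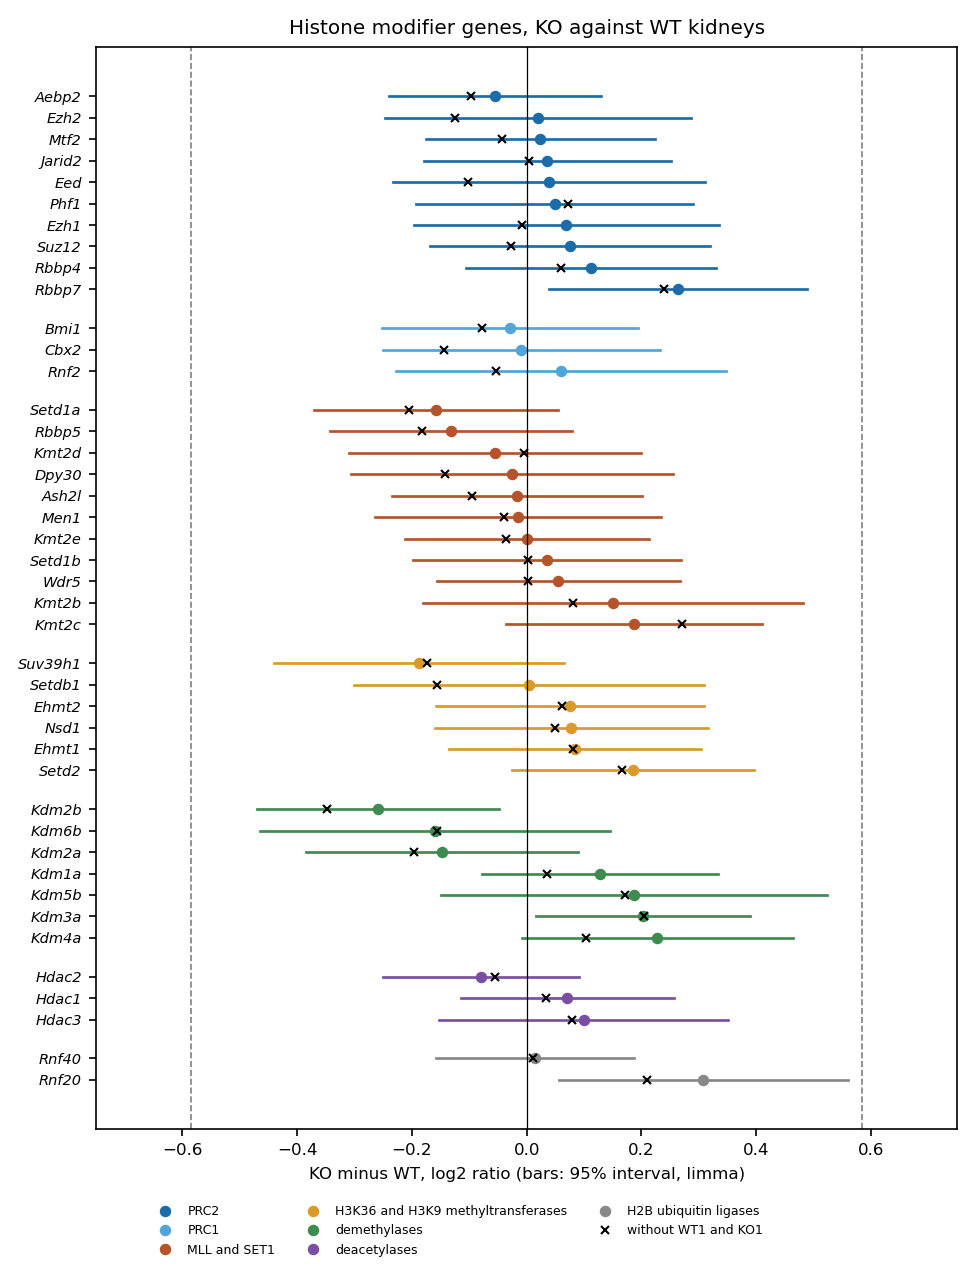
Differences of the 42 measured histone modifier genes, KO minus WT, on the log2 scale (horizontal axis), grouped and coloured by role. Points are limma estimates from 8 arrays, bars their 95% intervals, crosses the estimates without WT1 and KO1, and dashed lines a 1.5-fold change. In this fit every interval lies between the dashed lines, from Kdm2b at -0.26 to Rnf20 at 0.31.

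Sequences are shown for Kdm2b, the gene in which a second probe passed, as described below. It encodes a demethylase whose zinc finger binds CpG dinucleotides without methylation and which brings a variant PRC1 to CpG islands, and its transcripts start at separate promoters that give a longer and a shorter protein. The RefSeq promoter table (GRCm38.p6, minus strand, 250 bases before to 50 after a start) holds 4 windows for it at 2 places of chromosome 5. Of each place 1 window is printed 5′ to 3′, with every CpG in capitals. The upstream place holds a pair of windows that do not overlap. Of these the one with more CpG is printed, and the other, with 18 CpG, is the first listed and the one counted below. The downstream place holds a pair that overlap, of which the first listed is printed, although the other has more CpG (49). The upstream window, chr5:122989050-122989349, holds 28 CpG and 63.7% G and C, and the downstream window, chr5:122900318-122900617, holds 47 CpG and 79.7% G and C.
Kdm2b upstream: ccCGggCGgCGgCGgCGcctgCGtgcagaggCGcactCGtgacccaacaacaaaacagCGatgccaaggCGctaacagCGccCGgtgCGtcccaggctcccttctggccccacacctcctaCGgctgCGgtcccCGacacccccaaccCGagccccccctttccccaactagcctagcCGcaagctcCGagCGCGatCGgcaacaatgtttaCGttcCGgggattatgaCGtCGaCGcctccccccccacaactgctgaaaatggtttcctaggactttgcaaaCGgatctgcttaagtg
Kdm2b downstream: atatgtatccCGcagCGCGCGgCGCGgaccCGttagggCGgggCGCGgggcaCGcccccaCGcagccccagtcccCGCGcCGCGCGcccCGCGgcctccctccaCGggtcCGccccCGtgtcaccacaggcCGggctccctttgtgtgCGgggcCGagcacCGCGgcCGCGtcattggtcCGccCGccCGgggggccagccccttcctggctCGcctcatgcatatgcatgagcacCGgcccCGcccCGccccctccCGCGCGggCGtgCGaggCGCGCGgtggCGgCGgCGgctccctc
Dense CpG was shared widely by the set. Of the 34 genes with an entry in the table, 30, or 88.2%, had a ratio of observed to expected CpG above 0.6 in their first listed window, against 67.4% of the 11075 tested genes with an entry. The 4 others were Aebp2, Dpy30, Men1 and Rnf20. The 34 include Kmt2a and Ring1, both above 0.6, which were not among the tested genes. The letters GGGCGG, on either strand, were in 64.7% of the 34 windows and in 62.6% of those of tested genes, CCAAT in 41.2% and 38.4%, and TATAAA in 2.94% (Rnf20 alone) and 7.60%. These matches describe the letters only and are no evidence of binding.

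All 10 PRC2 genes of the set were measured, and none passed (median 0.04). Phf19, a PRC2 gene outside the set, is described with the further pathway genes below. Ezh2, the main methyltransferase of PRC2 in dividing cells, had log2 ratios of -0.37, -0.15, 0.18 and 0.08 (WT1 to WT4) against 0.08, -0.12, -0.20 and 0.06 (KO1 to KO4). The groups overlapped over nearly their whole range, and the difference was 0.02 ± 0.12 (adjusted p = 0.97), or -0.12 without WT1 and KO1. Its paralogue Ezh1, which prevails in resting cells, differed by 0.07 ± 0.12 (-0.09 and -0.07 at its other probes). The core partners needed for enzyme activity were as close to 0, with Eed, which reads the H3 lysine 27 mark, at 0.04 ± 0.13 and Suz12 at 0.08 ± 0.11. Of the accessory subunits, Jarid2 differed by 0.04 ± 0.10, Aebp2 by -0.06 ± 0.09, and the Polycomb-like proteins Mtf2 and Phf1, which bind CpG-rich DNA, by 0.02 ± 0.09 and 0.05 ± 0.11. A second Phf1 probe gave 0.25 ± 0.09 without overlap of the groups (adjusted p = 0.256 over every kept probe).

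The histone-binding chaperones Rbbp4 and Rbbp7 serve PRC2 and deacetylase complexes alike. Rbbp7, an X-linked gene, had log2 ratios of -0.36, -0.59, -0.16 and -0.46 (WT1 to WT4) against -0.02, -0.27, -0.09 and -0.13 (KO1 to KO4). Most KO arrays lay above most WT arrays, but WT3 lay among the KO values, and the difference was 0.26 ± 0.10 (adjusted p = 0.252). With sex as a term it was 0.47 ± 0.15 (adjusted p = 0.292), a fit in which the male WT group is WT2 alone. The second Rbbp7 probe gave the opposite sign, -0.14 ± 0.09, with ratios of 0.15, 0.14, 0.21 and 0.35 (WT1 to WT4) against 0.21, 0.07, -0.09 and 0.08 (KO1 to KO4). The probes thus disagreed by 0.41, the largest gap among the 17 genes of the set with more than 1 kept probe. Rbbp4 was similar on a smaller scale, with 0.11 ± 0.10 and, at its second probe, -0.12 ± 0.08.

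Of the PRC1 genes of the set, 3 of 4 were measured. Rnf2, the main E3 ligase for histone H2A, differed by 0.06 ± 0.13, its partner Bmi1 by -0.03 ± 0.10 and the chromodomain subunit Cbx2, which reads the H3 lysine 27 mark, by -0.01 ± 0.11. The other ligase gene, Ring1, was well above background on 1 array, WT1, and had red signals of 52.5 to 68 scanner units on the 6 arrays other than WT1 and KO1, at the level of the negative-control spots. No difference is given for it.

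MLL and SET1 complexes were represented by 11 of 12 genes, with a median difference of -0.01 and none passing. No probe accession matched Kmt2a, the founding MLL gene, so it was not analysed here. Among the catalytic subunits, Kmt2c, which acts at enhancers, had log2 ratios of -0.14, -0.37, -0.27 and -0.17 (WT1 to WT4) against -0.21, -0.21, 0.12 and 0.08 (KO1 to KO4). KO3 and KO4 lay above every WT array while KO1 and KO2 lay among them, and the difference was 0.19 ± 0.10 (adjusted p = 0.443), or 0.27 without WT1 and KO1. Setd1a, a SET1 methyltransferase, had ratios of -0.08, 0.11, 0.11 and 0.28 (WT1 to WT4) against -0.10, -0.03, -0.17 and 0.09 (KO1 to KO4), a difference of -0.16 ± 0.10 (adjusted p = 0.504) with overlapping groups. Setd1b differed by 0.04 ± 0.11, Kmt2b by 0.15 ± 0.15 and Kmt2d by -0.055 ± 0.12. The Kmt2d value rests on 3 KO arrays because its KO1 spot was left out as an outlier. Kmt2e, listed in this group of the set, differed by 0.00 ± 0.10. The subunits that MLL and SET1 complexes share lay between -0.13 ± 0.10 (Rbbp5) and 0.05 ± 0.10 (Wdr5). Ash2l was at -0.02 ± 0.10 and Dpy30 at -0.03 ± 0.13, again over 3 KO arrays. Men1, which encodes menin, the adaptor of MLL1 and MLL2 complexes, differed by -0.01 ± 0.11.

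All 6 genes of the set for methyltransferases of lysines 36 and 9 of histone H3 were measured, and none passed. Setd2, which writes the trimethyl mark on lysine 36 along transcribed genes, had log2 ratios of -0.40, -0.04, -0.17 and -0.21 (WT1 to WT4) against -0.15, 0.02, 0.09 and -0.03 (KO1 to KO4). Its KO values were mostly the higher ones but overlapped with WT2, and the difference was 0.19 ± 0.10 (adjusted p = 0.413), and 0.01 ± 0.15 once sex entered the fit. Nsd1, the dimethyltransferase of lysine 36, differed by 0.08 ± 0.11. Suv39h1, the X-linked methyltransferase of heterochromatin, had ratios of 0.05, 0.48, 0.12 and 0.04 (WT1 to WT4) against -0.18, 0.09, 0.14 and -0.11 (KO1 to KO4). WT2, the male WT array, lay far above every other array. The difference was -0.19 ± 0.12 (adjusted p = 0.506), -0.08 without WT2 and -0.50 ± 0.15 with sex as a term (adjusted p = 0.258). Of the other lysine 9 enzymes, Ehmt1 differed by 0.08 ± 0.10 (0.27 ± 0.13 at its second probe), Ehmt2 by 0.075 ± 0.11 and Setdb1 by 0.00 ± 0.14.

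**Figure D2:**
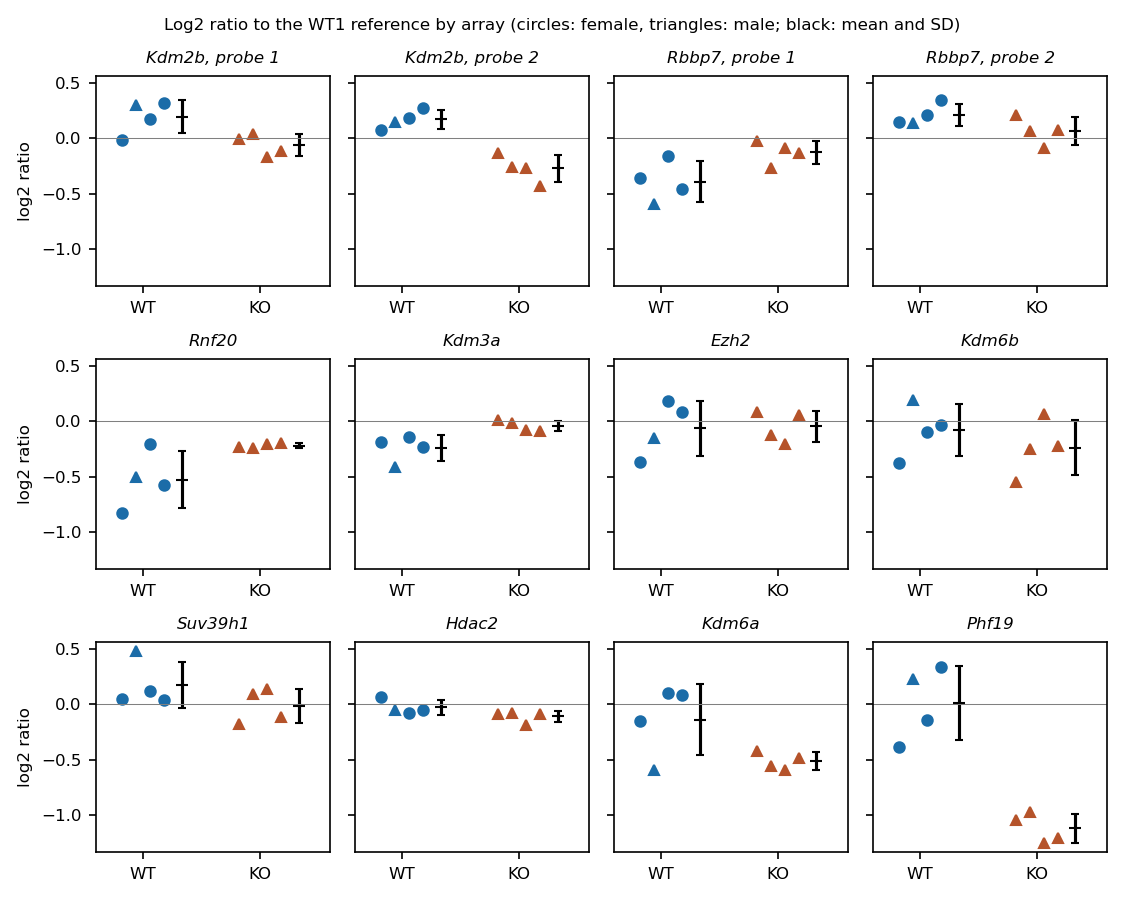
Log2 ratio to the WT1 reference (vertical axis) on each of 4 WT (blue) and 4 KO (orange) arrays for named genes, with circles for female and triangles for male embryos, and the mean and SD of each group in black. At Kdm2b probe 2 all KO arrays lie between -0.43 and -0.13 and all WT arrays between 0.08 and 0.28. Rbbp7 has differences of opposite sign at its 2 probes, WT2 lies with the KO arrays for Kdm6a, and Phf19 shows the widest separation.

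The demethylases held the gene with the smallest p of the set. Kdm2b had log2 ratios of -0.01, 0.31, 0.18 and 0.32 (WT1 to WT4) against -0.003, 0.04, -0.17 and -0.11 (KO1 to KO4). WT2, WT3 and WT4 lay above every KO array and WT1 lay among the KO values, and the difference was -0.26 ± 0.10 (adjusted p = 0.224), or -0.35 without WT1 and KO1 (adjusted p = 0.119). A second Kdm2b probe for the same transcript accession, examined after its values were seen, had ratios of 0.08, 0.15, 0.18 and 0.28 (WT1 to WT4) against -0.13, -0.26, -0.26 and -0.43 (KO1 to KO4). There every KO array lay below every WT array. At their brightest probes 9.27% of all genes had groups that did not overlap, in either direction, and the share over all kept probes was not computed. When every kept probe was tested, 25679 in all with 0.857% called, this probe passed at -0.44 ± 0.09 (adjusted p = 0.0416), and Kdm2b was the only gene of the set with a probe that passed. That call did not hold in most other fits: the adjusted p was 0.0628 with the replicate block, 0.0552 without WT1 and KO1 and 0.393 with sex as a term, where the differences were -0.44, -0.52 and -0.42. It was between 0.0697 and 0.167 without any single array other than KO1, and 0.0361 without KO1. Which of the transcripts that start at the printed promoters each probe detects was not analysed here.

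No other demethylase had a probe that passed. Kdm3a, which removes methyl groups from H3 lysine 9, had log2 ratios of -0.18, -0.41, -0.14 and -0.23 (WT1 to WT4) against 0.01, -0.01, -0.08 and -0.09 (KO1 to KO4). All KO arrays lay above all WT arrays, with a difference of 0.20 ± 0.09 (adjusted p = 0.295), or 0.205 without WT1 and KO1 and 0.37 ± 0.13 with sex as a term (adjusted p = 0.307). At the brightest probes, 40 genes were measured on all arrays. Only Kdm3a and Hdac2 of these had groups that did not overlap (5%, against 9.27% of all genes). The second probes of Kdm2b and Phf1 also had groups without overlap. Kdm4a, a demethylase of lysines 9 and 36, had ratios of -0.43, -0.15, 0.04 and 0.02 (WT1 to WT4) against 0.17, 0.11, -0.0025 and 0.12 (KO1 to KO4), and its difference of 0.23 ± 0.11 (adjusted p = 0.367) was 0.10 without WT1 and KO1.

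Kdm6b, which removes the PRC2 mark, had log2 ratios of -0.37, 0.20, -0.10 and -0.04 (WT1 to WT4) against -0.54, -0.25, 0.07 and -0.22 (KO1 to KO4), a difference of -0.16 ± 0.14 (adjusted p = 0.679) with groups that overlapped, and -0.43 ± 0.21 once sex entered the fit (adjusted p = 0.438). Kdm2a, the lysine 36 demethylase related to Kdm2b, had ratios of 0.06, 0.07, 0.12 and 0.36 (WT1 to WT4) against 0.06, 0.09, -0.26 and 0.13 (KO1 to KO4). It differed by -0.15 ± 0.11 (adjusted p = 0.602), with WT4 high and KO3 low, while its second probe gave 0.11 ± 0.14. The lysine 4 demethylases Kdm1a and Kdm5b differed by 0.13 ± 0.09 and 0.19 ± 0.15 (-0.02 at the second Kdm5b probe). Kdm5a was well above background on 3 arrays, WT1, WT4 and KO1, with red signals of 63.5 to 86 units on the 6 arrays other than WT1 and KO1, and was not tested.

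The 3 deacetylase genes of the set were measured, and none passed. Hdac1 differed by 0.07 ± 0.09 and Hdac3, the subunit of the nuclear receptor corepressor complex, by 0.10 ± 0.12. Hdac2 had log2 ratios of 0.07, -0.05, -0.07 and -0.05 (WT1 to WT4) against -0.09, -0.08, -0.18 and -0.08 (KO1 to KO4). All its KO arrays lay below all WT arrays, yet KO2 and KO4 came close to WT3, and the difference was -0.08 ± 0.08 (adjusted p = 0.715). The Hdac2 probe was dim, with red signals of 92.4 to 135.8 units on the arrays other than WT1 and KO1. Negative-control medians there were 58 to 61, so this order rests on weak signals.

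Of the H2B ubiquitin ligases, which act directly ahead of DOT1L, Rnf20 had the largest difference of the set at the brightest probes of all 8 arrays; the second Kdm2b probe differed more, as did Kdm2b without WT1 and KO1. Its log2 ratios were -0.83, -0.50, -0.20 and -0.57 in WT1 to WT4 and -0.23, -0.24, -0.21 and -0.20 in KO1 to KO4. The KO arrays were tightly grouped, and WT3 lay among them while the other WT arrays were lower. The difference was 0.31 ± 0.12 (adjusted p = 0.228), or 0.21 without WT1 and KO1 (adjusted p = 0.425), and 0.41 without WT3 (adjusted p = 0.0625). Rnf40, its obligate partner, differed by 0.01 ± 0.08, with ratios between -0.07 and 0.09 on all 8 arrays.

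The signs of many of these small differences changed when arrays were left out. WT1 was the lowest array for 24 of the 42 genes, KO3 for 8 and WT2 for 6. The median log2 ratio of the 42 genes was -0.19 on WT1, where the same RNA was in both colours, and lay between -0.03 and 0.02 on the 7 other arrays, while that of all genes was -0.07 on WT1. The SD between arrays was larger in WT than in KO for 34 of 42 genes (medians of 0.17 and 0.12). Of the 42 differences 28 were above 0 and 14 below. Without WT1 and KO1 the median difference was -0.01, and 8 genes changed sign, among them Ezh1, Ezh2, Eed and Suz12. Without WT1 alone 11 changed sign, without KO4 7, without WT2 6, and without each of the other single arrays 2 to 5.

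**Figure D3:**
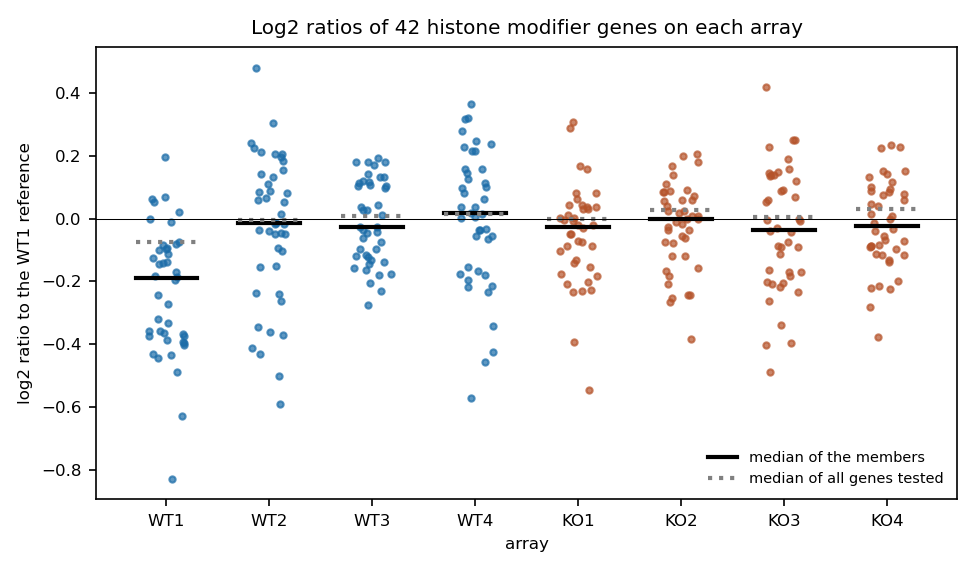
Log2 ratios to the WT1 reference (vertical axis) of the 42 genes on each array (points; WT blue, KO orange), with the median of the set as a black line and that of all tested genes as a dotted line. The set lies at -0.19 on WT1 and close to 0 on the other arrays.

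Marker genes of several cell types did pass. Of 12 nephron progenitor markers 6 fell and none rose, with a median of -0.38. Per-array medians were -0.10 to 0.19 in WT and -0.59 to -0.32 in KO. Cited1 was lower by 2.72, while Six2 differed by -0.21 (adjusted p = 0.439). Differences of 9 of the 12 were below 0 and those of 3 above, Eya1 (0.21), Crym (0.23) and Gdnf (0.08). The 10 stromal markers had a median of 0.50 with 5 that rose (per-array medians of -0.14 to 0.02 in WT and 0.30 to 0.53 in KO), and the 9 macrophage and leukocyte markers a median of 0.47 with 5 that rose. The 12 proximal tubule markers were all above 0, with a median of 0.48 (0.71 without WT1 and KO1; per-array medians of -0.73 to -0.20 in WT and -0.08 to 0.65 in KO), of which 1 rose, Cyp2e1, at 2.24. Endothelial and erythroid markers had medians of 0.04 and 0.12, and none passed. Of 15 cell cycle genes none passed, with a median of -0.13 and -0.22 without WT1 and KO1. The part of these shifts in the values of single histone modifier genes was not tested.

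Other genes of the same pathways were drawn from a list of 129, of which 116 were measured. Of these, 1 fell and none rose, and their median difference was 0.00. The gene that fell was Phf19, the third Polycomb-like subunit of PRC2 beside Mtf2 and Phf1. It had log2 ratios of -0.38, 0.23, -0.14 and 0.34 (WT1 to WT4) against -1.05, -0.97, -1.25 and -1.21 (KO1 to KO4). Every KO array lay far below every WT array, with a difference of -1.13 ± 0.15 (adjusted p = 0.00308), or -1.29 without WT1 and KO1 (adjusted p = 0.00572). Thus of the 3 Polycomb-like genes Phf19 passed while the interval of Mtf2 (-0.18 to 0.22) excluded a fall of that size. No test between the genes was made. The interval of Phf1 was -0.19 to 0.29, but its probe had red signals of only 80 to 105 units on the arrays other than WT1 and KO1. Negative-control medians there were 58 to 61, and so dim a probe cannot show whether Phf1 fell as far. With sex as a term Phf19 differed by -1.35 (adjusted p = 0.0543).

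Kdm6a, the X-linked demethylase of the PRC2 mark that escapes X inactivation, had log2 ratios of -0.15, -0.59, 0.10 and 0.08 (WT1 to WT4) against -0.42, -0.56, -0.59 and -0.48 (KO1 to KO4). The male WT2 array lay with the male KO arrays and below the female WT arrays. The difference was -0.38 ± 0.14 (adjusted p = 0.213) in the comparison of the groups, -0.53 without WT2 (adjusted p = 0.031) and 0.08 with sex as a term. Kdm5c, an X-linked demethylase of lysine 4 that also escapes X inactivation, differed by -0.12 ± 0.11, and there WT2 (0.04) lay within the range of the female WT arrays (-0.26 to 0.22). Apart from Kdm6a, the genes with the smallest p in the other lists were Smyd5 (-0.34 ± 0.10, adjusted p = 0.103), Pcgf5 (0.35 ± 0.11, adjusted p = 0.136), Rcor2 (-0.26 ± 0.09), Asxl2 (0.21 ± 0.10), Sirt5 (0.21 ± 0.12), Atxn7l3 (-0.18 ± 0.11), Kat2a (-0.16 ± 0.11) and Pagr1a (0.11 ± 0.09), none of which passed.

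**Figure D4:**
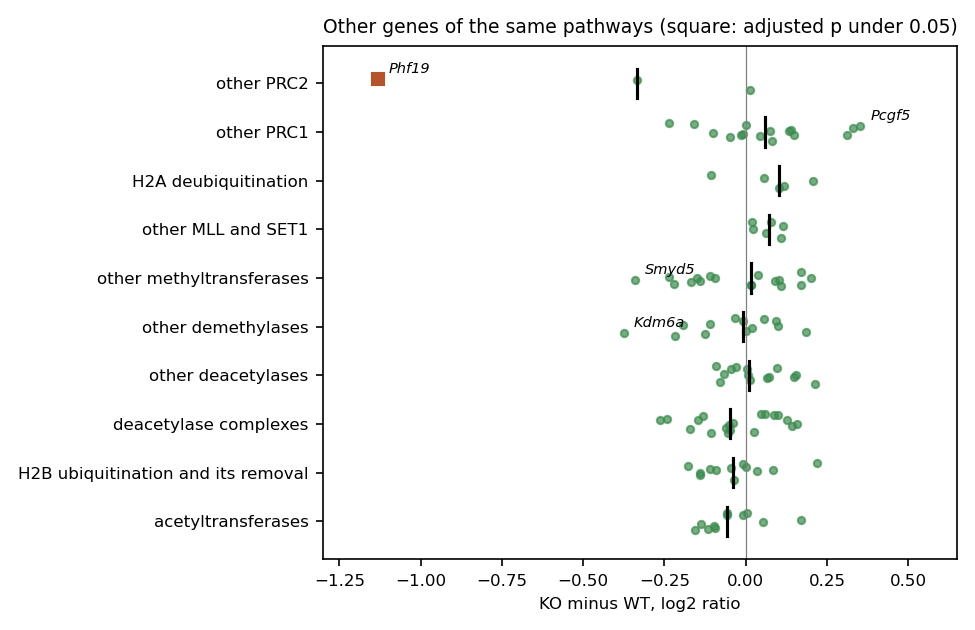
Differences, KO minus WT, on the log2 scale (horizontal axis) for 116 further genes of the same pathways, by list. Each circle is a gene, the square a gene with an adjusted p under 0.05, and black lines are list medians. Phf19 stands alone at -1.13, and all other genes lie between -0.38 and 0.35.

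The sizes of the differences can be set side by side without regard to sign. The median size was 0.08 for the 42 genes and 0.10 for all 13982.

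**Figure D5:**
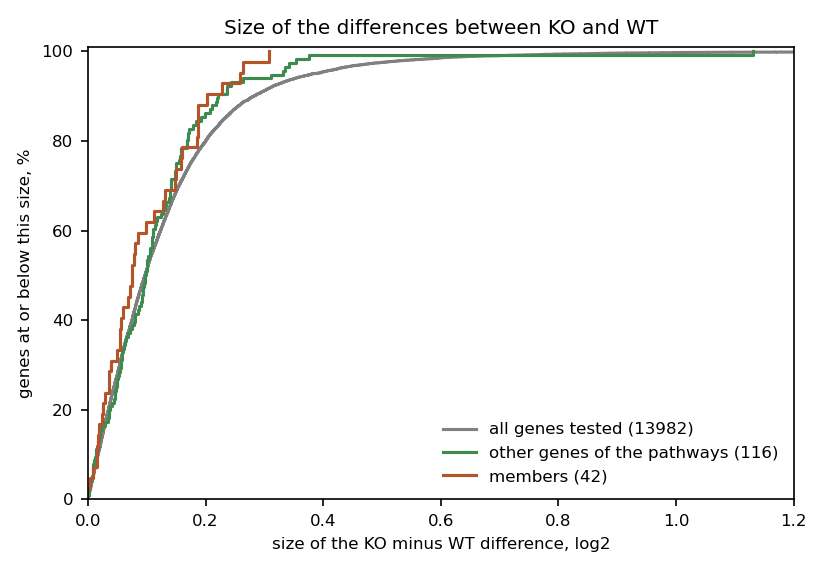
Share of genes (vertical axis, in percent) whose difference between KO and WT is at or below a given size on the log2 scale (horizontal axis), for the 42 histone modifier genes, the 116 other genes of the pathways and all 13982 genes tested. The 42 genes reach 100% at 0.31. None of them passed the test, against 2.15% of all genes.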

How the data were processed

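RNA of 4 WT and 4 KO kidney pairs was hybridised to 2-colour Agilent mouse arrays, and the submitters' processing notes name Agilent Feature Extraction 10.7.3.1 as the scanner software. The deposited red and green median intensity values and local background intensities were used as given by the scanner software, and the software's flags for outliers and for spots well above background, deposited beside them, chose the spots. The deposited log10 ratios, which the authors' series table also holds, served as an alternative. From the intensities, log2 ratios were computed with limma 3.58.1 in R 4.3.3 (normexp with offset 50, loess within arrays), and 1765 outlier readings (0.372%) were left out. Probes well above background in red on at least 4 of 8 arrays were kept (25679), named through RefSeq accessions, and the brightest probe stood for each of 13982 genes. Groups were compared with lmFit and eBayes and Benjamini-Hochberg adjustment. The fit was also run on simulated data with known differences and independent noise. That run checks the calculation only, not effects of sex, slide row or array quality. The labels name separate kidney pairs but not litters, so p-values measure the spread between these pairs.

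The labels number the kidney pairs of each group but do not say whether equal numbers join a WT and a KO pair. Deviations of same-numbered arrays from their group means correlated at 0.14 to 0.37, above 0.1 for each number. Arrays of a different number correlated more in 3 of 4 cases (up to 0.37), so these values do not settle the pairing. The main fit was unpaired, with the replicate block as an alternative. Values per array were given for the 10 genes with the smallest p, for Ezh2 and Kdm6b, for Rbbp7 and Suv39h1 as the X-linked genes of the set, and for Phf19 and Kdm6a of the further lists; Hdac2, Kdm5c and the second probes were named after their values were seen. The genes, lists and tests were chosen with earlier results of these data known. Alternatives were the scanner ratios, median centring, the red channel, other filters and probe rules, array weights, the replicate block, sex, and arrays left out.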

Additional observations from a re-analysis of the deposited data

Results flagged for a closer look

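In 5 of 82 groups of 4 arrays (6.1%), over the 42 measured genes of the set, a single array lay far from the 3 others, and chance alone gives about 1 in 20. Kmt2e on WT1 was at -0.13 on the log2 scale, against 0.15 to 0.19 on the other WT arrays. Ehmt1 on KO1 was at -0.23, against -0.01 to 0.01. Setdb1 on KO3 was at -0.49, against -0.01 to 0.08, and Hdac2 on KO3 was at -0.18, against -0.09 to -0.08. Kdm2a on WT4 was at 0.36, against 0.06 to 0.12.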

How the results depend on the processing

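No gene of the set passed in any alternative except the test of every kept probe, where 1 did (Kdm2b, second probe) and 198 genes passed in all. Over all genes the count of 301 became 123 with the scanner ratios (73 higher, 50 lower), 0 with median centring (178 genes at an unadjusted p under 0.05), 1 with the red channel alone, 454 with array weights, 12 with sex as a term and 83 to 345 without single arrays, lowest without KO4 (187, 150, 129, 141 and 198 without WT1, WT2, WT4, KO2 and KO3). With the replicate block it was 556 (445 higher, 111 lower). Chosen after seeing the data, the red channel without WT1 and KO1 gave 145 and the replicate block without them 542. Of the other pathway genes, 0 passed with median centring, the red channel or sex, and 1 to 2 without single arrays, with Kdm6a joining Phf19 without WT2. The median of the set was 0.60 in the red channel, where that of all genes was 0.22, -0.0547 with sex, -0.0464 in the red channel without WT1 and KO1, and -0.01 to 0.07 without single arrays. Ezh2 turned to -0.0255 with the scanner ratios and -0.0278 with array weights, to -0.12 without WT1 and KO1 (also with the block), to -0.32 in the red channel without them, and ranged from -0.0817 to 0.101 without single arrays. In the red channel Rbbp7 turned to -0.0192, Setd1a to 0.63, Kdm2a to 0.0242 and Kdm6b to 0.81. Without WT1 and KO1 in that channel, Rnf20 was -0.0026, Rbbp7 -0.0287 and Kdm4a -0.0591. Kdm6a turned to 0.0768 with sex. At its second probe Kdm2b stayed below 0 in every fit run, with adjusted p = 0.124 for the scanner ratios and 1 for median centring. The causes were not tested.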

Other observations

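Among the further PRC1 genes, 16 of 19 were measured and none passed. All KO arrays lay above all WT arrays for Pcgf5, a subunit that defines a variant PRC1, with a difference of 0.35 ± 0.11 (SE; limma adjusted p = 0.136), and for Rybp, which takes the place of the CBX proteins in variant PRC1, with 0.31 ± 0.10 (adjusted p = 0.158). Without WT1 and KO1 their differences were 0.25 and 0.22. Over all 116 further pathway genes 9 had groups that did not overlap, 4 with KO above and 5 with KO below, or 7.76%, against 9.27% of all genes.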
